A study of Mus musculus with 24 samples.

Results

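Naive pluripotency is the state of the epiblast in the mouse blastocyst, the embryo of the last stage before implantation, and of embryonic stem cells derived from it. The transcription factors of this state bind shared enhancers and activate one another's genes, and signals of the LIF, WNT and FGF pathways feed into them. In the blastocyst the epiblast forms part of the inner cell mass, beside the primitive endoderm and inside the trophectoderm that later gives the placenta. The 10 genes described here are the factors Pou5f1, Nanog, Sox2, Klf2, Klf4, Klf5, Esrrb, Tfcp2l1, Zfp42 and Prdm14. They were chosen by name, and every probe of the array whose gene name is one of them was taken on all 24 arrays: 15 of 56605 probes, for 10 of 37005 genes.

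The samples were 24 pools of frozen expanded mouse blastocysts, 1 pool to an array, measured on Agilent arrays of 60-base probes with a single dye. Their labels give 6 codes for the condition, from HC1 up to HC6. Each code has 4 pools, and a pool held 15 blastocysts, or 20 in HC6, so the code HC6 and the pool size cannot be told apart. By its title the study is about activation of the membrane estrogen receptor and about bisphenol A, an estrogenic compound used to make plastics. The labels name neither the treatment behind a code nor a control, and they give no strain, genotype, dose, time or age of the donors. Freezing was common to all groups. No label says that the pools of a code came from separate animals or cultures, so p-values measure only the spread between these pools, which may be partly technical.

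Each array was labelled from 2 ng of total RNA. Between 38.6% of spots in HC6 replicate 1 and 49.7% in HC6 replicate 4 were well above background, which is the scanner software's flag for signal over the local background. HC5 replicate 4 had the lowest 75th percentile of processed signal (47.3) and HC3 replicate 3 the highest (128). All levels below are the log2 of the processed signal minus this percentile of the same array, so 1 unit is a 2-fold difference and levels of different probes cannot be set against each other. The number of arrays limits the precision. Of the markers listed for the tissue, all 4 of the epiblast list (Fgf4, Tdgf1, Gdf3 and Dppa5a) and all 12 of the primitive endoderm list had a probe well above background on 24 of 24 arrays. So did 12 of 13 for the trophectoderm, while Hand1 of that list reached it on 0 arrays. Of the markers of other cells, 6 of 11 of the cumulus and granulosa list and 4 of 9 of the oocyte list were well above background on 0 arrays, among them Amh, Fshr, Zp1 and Mos. In the list of uterine and stromal cells the probes for Dcn and Lum reached it on 0 arrays. Other genes of these lists did reach it. In the oocyte list Nlrp5 did so on 24 arrays, Gdf9 on 23, Zp3 on 18, Zp2 on 7 and Ooep on 2. In the cumulus and granulosa list Foxl2 did so on 24 arrays, Cyp11a1 on 17, Has2 on 9 and Cyp19a1 and Ptx3 on 1 each. Vim of the stromal list did so on 24, Col1a1 on 7 and Pgr on 3. Of the blood list, Ptprc did so on 24, Hba-a1 on 21, Cd52 on 2 and Alas2 on 0.

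The probes decide what a level stands for, so those with a bearing on the results are shown first, with mm9 coordinates from the deposited files. The probes of Pou5f1, Nanog, Klf5 and Prdm14 shown here whole lie in coding sequence. For Pou5f1, Klf5 and Prdm14 the capitals mark the longest run of bases also found in a probe for another gene. For Nanog they mark the last 3 bases, the stop codon.

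Pou5f1: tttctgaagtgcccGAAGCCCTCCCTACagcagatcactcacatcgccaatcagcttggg
Nanog: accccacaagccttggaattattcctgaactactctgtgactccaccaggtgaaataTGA
Klf5: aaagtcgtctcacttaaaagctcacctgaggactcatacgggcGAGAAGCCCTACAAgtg
Prdm14: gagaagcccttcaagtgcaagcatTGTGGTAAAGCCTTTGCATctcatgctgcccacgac

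The Pou5f1 probe lies on chromosome 17 from 35647013 to 35647072 and encodes part of the POU homeodomain, by which the protein binds DNA. The Klf5 probe spans 9733 bases of chromosome 14, from 99702656 to 99712388, for its 60 bases, so it joins exons across an intron. The Prdm14 probe lies on chromosome 1 from 13104458 to 13104517, on the minus strand, in the zinc finger part of the gene. Runs of at least 14 bases of it also occur in 25 probes of other features, the longest of them 19 bases, and many of those features are zinc finger genes such as Zfp932, Zfp781 and Zfp442. The 23 of these probes that were well above background on all arrays had a median Pearson r of 0.94 with the Prdm14 probe over the 24 pools, with a range of -0.07 to 0.97. Prdm14 levels are therefore reported as uncertain, since the signal of this gene and of related transcripts cannot be told apart here. Mouse Pou5f1 also has processed pseudogene copies, and the probe of Pou5f1-rs4 had an r of 0.83 with that of Pou5f1 over the 24 pools. These probes share no run of at least 14 bases. The run marked for Pou5f1 is shared with the probe of Gm5523, which had an r of 0.33. Whether the Pou5f1 probe also reads pseudogene transcripts was not tested.

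A second set of stretches is shown because 5 of the genes had 2 probes each, and these did not always vary together. For the second Nanog probe the capitals mark a run of 26 bases also found in the probe of Zfp872. For Zfp42 the bases are those that its 2 probes share, and for Tfcp2l1 and Esrrb the capitals mark AATAAA, the signal before the cleavage site of most messenger RNAs.

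Nanog, second probe: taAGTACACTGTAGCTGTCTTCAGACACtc
Zfp42, shared stretch: TGTGCTATTGAAGGGGATGG
Tfcp2l1, part: gtacctgaAATAAAgcatattttgcacttg
Esrrb, part: catgtatctgaaatctAATAAAtaaggaaa

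The letters AATAAA, read on the probe strand only, occur in 2 of 15 member probes and in 9.77% of all probes of the array. The Nanog probes lie on chromosome 6 from 122663514 to 122663573 and from 122663676 to 122663735. The used Zfp42 probe lies on chromosome 8 from 44380667 to 44380726. The used Tfcp2l1 probe lies on chromosome 1 from 120581646 to 120581705, while its second probe is listed as unmapped, and the used Esrrb probe lies on chromosome 12 from 87862509 to 87862568. The used Tfcp2l1 probe shares 14 bases with the probe of Taf13, and the r between them was 0.84. Dennd4a, Ndufa8 and Skint7, with no run of 14 bases in common with it, reached an r of 0.95. The part of the shared bases in the r with Taf13 was not tested. The single probes of Sox2, Klf2 and Klf4 lie on chromosomes 3, 8 and 4. The used probe is the brightest of a gene's kept probes. Exon and UTR annotation of the probes was not used here, except that coding sequence is named above from knowledge of the genes.

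Of the 10 genes, 9 were well above background on all 24 arrays. Prdm14 was so on 22, and the exceptions were HC5 replicate 4 and HC6 replicate 1. The SD over the 24 pools was below the median SD of all genes detected on every array (0.22, over 13032 genes) for 5 of these 9 members. Klf5, Zfp42, Esrrb, Klf4 and Klf2 were the 5.

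Pou5f1 (also Oct4), the POU factor that inner cells need to become pluripotent, averaged 3.63 ± 0.25 (log2, SD, n = 24). Its levels in replicates 1 to 4 were 3.12, 3.46, 3.66 and 3.75 in HC1, 3.80, 3.52, 3.79 and 3.43 in HC2, and 3.38, 3.54, 3.72 and 3.75 in HC3. They were 3.39, 3.82, 3.96 and 3.51 in HC4, 3.51, 3.47, 3.64 and 4.38 in HC5, and 3.58, 3.84, 3.65 and 3.53 in HC6. The groups overlapped, and the highest value, HC5 replicate 4, was 2.40-fold above the lowest, HC1 replicate 1. In a pool of whole blastocysts, fewer cells of a type and less RNA per cell cannot be told apart for this or any of the other genes.

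Nanog, the homeodomain factor that marks the epiblast once it separates from primitive endoderm, averaged 1.11 ± 0.32 at its used probe. Its levels were 1.01, 1.04, 1.06 and 1.27 in HC1, 1.43, 1.42, 0.80 and 0.72 in HC2, and 0.70, 1.34, 0.99 and 1.12 in HC3. They were 1.37, 1.71, 1.11 and 0.83 in HC4, 0.61, 0.99, 1.53 and 0.64 in HC5, and 0.99, 1.72, 1.11 and 1.15 in HC6. The 4 pools lay close together in HC1 and far apart in the other codes, and the groups overlapped.

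Sox2, the HMG-box partner with which Pou5f1 binds DNA, averaged 1.74 ± 0.27. Its levels were 1.99, 1.31, 1.53 and 1.93 in HC1, 2.04, 1.42, 1.54 and 1.91 in HC2, and 1.89, 1.73, 1.65 and 1.61 in HC3. They were 2.17, 1.84, 1.80 and 1.70 in HC4, 1.94, 1.82, 1.35 and 1.15 in HC5, and 1.64, 1.83, 2.26 and 1.78 in HC6. High and low pools occurred within each code, and the groups overlapped.

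The Krüppel-like factors Klf2, Klf4 and Klf5 are zinc finger activators with overlapping roles in stem cell self-renewal, and Klf5 also acts in the trophectoderm. Klf4 averaged 4.66 ± 0.17, with 4.71, 4.73, 4.65 and 4.84 in HC1, 4.74, 4.61, 4.47 and 4.55 in HC2, and 4.86, 4.80, 4.54 and 4.65 in HC3. It had 4.92, 5.14, 4.77 and 4.43 in HC4, 4.66, 4.55, 4.38 and 4.74 in HC5, and 4.52, 4.64, 4.53 and 4.52 in HC6. The 3 highest of the 24 levels included 2 pools of HC4, but the fourth HC4 pool was the second lowest of all. Klf2 averaged 2.62 ± 0.20, from 2.20 in HC1 replicate 2 to 2.94 in HC3 replicate 4, and its 4 HC4 pools lay within 2.71 to 2.77. Klf5 averaged 5.35 ± 0.14, from 4.97 in HC6 replicate 3 to 5.73 in HC5 replicate 4.

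Esrrb is an orphan nuclear receptor of the estrogen-related family, which sustains self-renewal downstream of WNT signalling and does not bind estradiol. It averaged 3.22 ± 0.16, from 2.93 in HC4 replicate 4 to 3.47 in HC4 replicate 1. Zfp42 (Rex1), a zinc finger gene used as a marker of the naive state, averaged 5.65 ± 0.13, from 5.30 in HC5 replicate 4 to 5.82 in HC4 replicate 1. Its SD was larger than that of only 11.2% of the genes detected on every array.

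Tfcp2l1, a target of LIF and STAT3 signalling, averaged 5.32 ± 0.26. Its levels were 5.68, 5.03, 5.23 and 5.50 in HC1, 5.49, 4.85, 4.99 and 5.48 in HC2, and 5.32, 5.52, 5.13 and 5.04 in HC3. They were 5.58, 5.58, 5.61 and 4.97 in HC4, 5.32, 5.50, 5.18 and 4.97 in HC5, and 5.06, 5.59, 5.44 and 5.52 in HC6. Each code held both high and low pools, and the groups overlapped.

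Prdm14, a repressor of FGF signalling and of DNA methylation genes in stem cells, averaged -0.70 ± 0.72 at its uncertain probe. Its levels were -0.37, -1.48, -1.01 and 0.21 in HC1, -0.07, -1.89, -1.18 and -0.31 in HC2, and -0.11, -0.33, -1.62 and -0.99 in HC3. They were -0.19, -0.62, 0.02 and -1.29 in HC4, 0.02, -0.39, -1.21 and -1.99 in HC5, and -1.96, -0.27, 0.06 and 0.11 in HC6. Its SD exceeded that of 99.0% of the genes detected on every array, and here too each code held high and low pools.

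**Figure D1:**
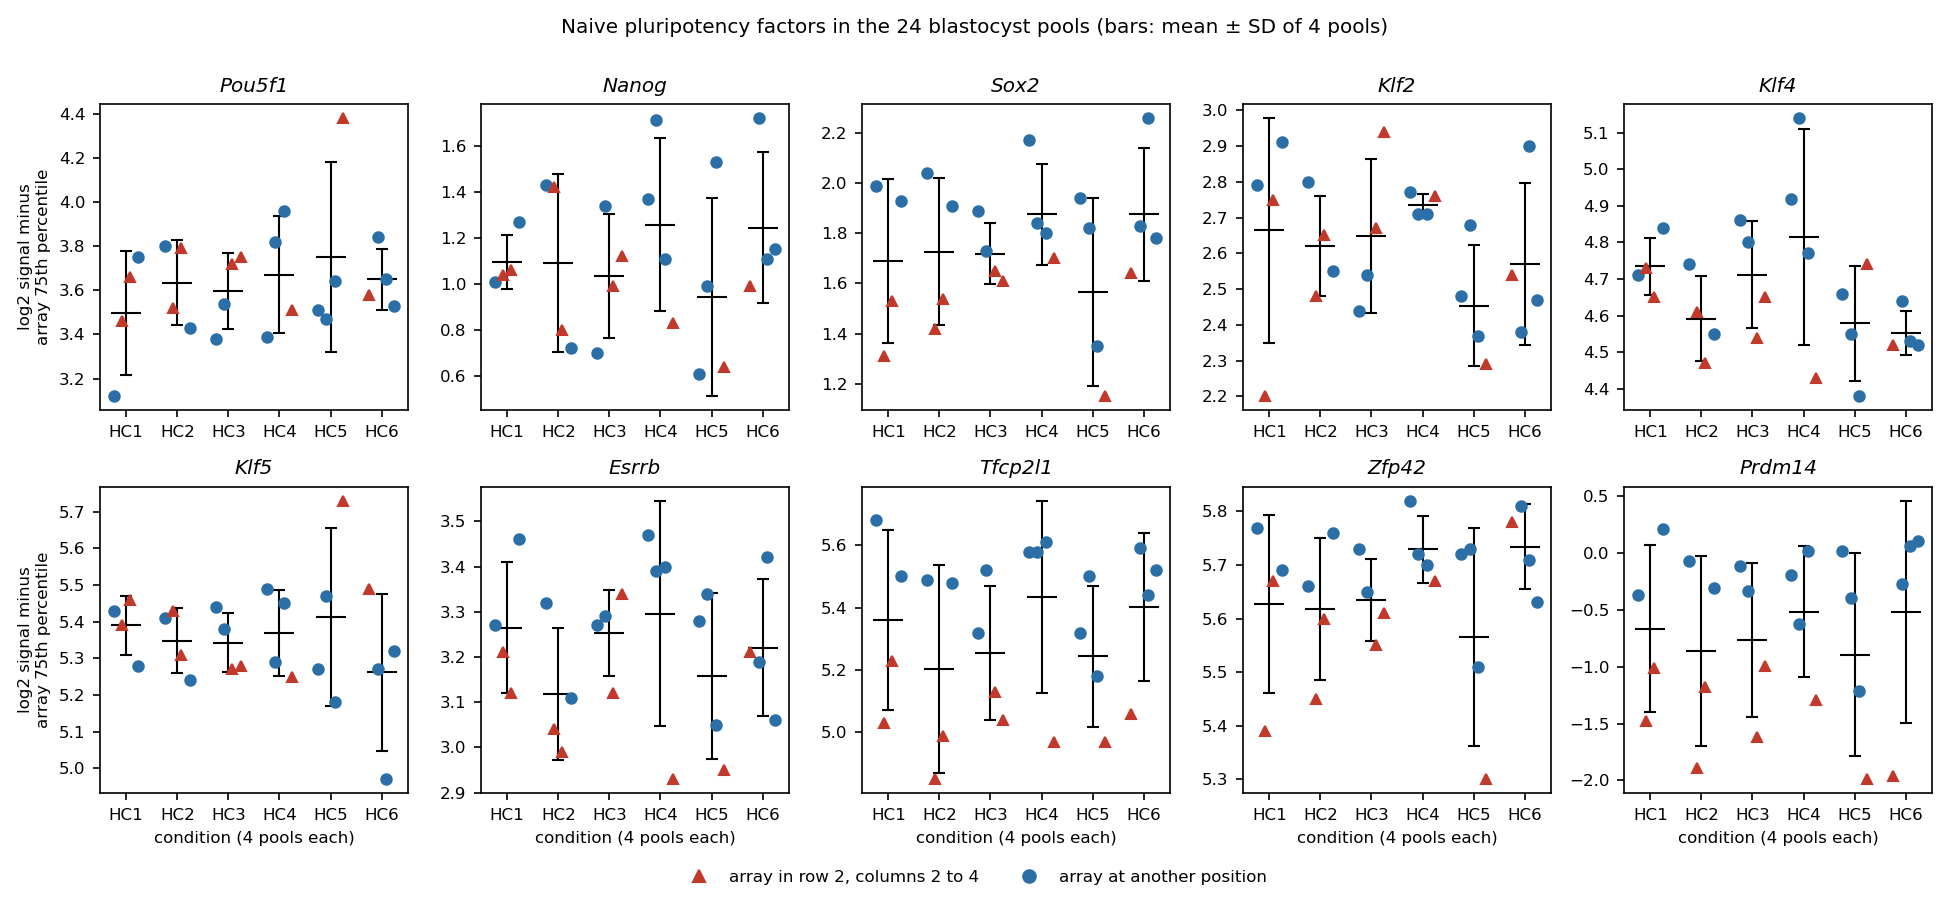
Level of each of the 10 factors (vertical axis, log2 processed signal minus the array's 75th percentile; own scale in each panel) in the 4 pools of HC1 to HC6. Bars give the mean ± SD of 4 pools, triangles mark arrays in row 2, columns 2 to 4 of a slide and circles other positions; the 6 groups overlap for all 10 genes, and for Tfcp2l1 and Prdm14 the triangles lie below the circles in each code.

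The first question was whether any factor differed among the 6 codes. No factor passed the moderated F-test of limma: 0 of 10 were called at an adjusted p under 0.05, where the percentage called over all 18399 genes tested was 0. At an unadjusted p under 0.05 the count was also 0 of 10, where it was 2.09% of all genes. Klf4 had the smallest unadjusted p of the 10 in this limma fit (0.24), with an adjusted p of 1. The means of neighbouring codes, put in order for each gene, never differed by more than the SD within codes. Putting means in order makes small gaps likely, so no conclusion is drawn from this. From the highest to the lowest code, the means of Sox2, Klf2, Klf4, Esrrb and Zfp42 differed by more than that SD, and those of the other genes did not. For Nanog the order was HC4, HC6, HC1, HC2, HC3 and HC5, with means from 1.26 to 0.94, a largest gap of 0.15 between neighbours and an SD within codes of 0.33. For Pou5f1 it was HC5, HC4, HC6, HC2, HC3 and HC1, with means from 3.75 to 3.50, a largest gap of 0.10 and an SD of 0.26.

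The second question set each code against the mean of the other 5. Of the 60 combinations of gene and code, 0 were called by limma, where the percentage called over all genes and codes was 0, and 0 of 60 had an unadjusted p under 0.05, where it was 2.89% over all genes and codes. Taken by code, that share of all genes was largest for HC5 (5.48%), followed by HC1 (3.21%), HC6 (2.97%), HC2 (2.23%), HC4 (1.88%) and HC3 (1.58%). Klf4 in HC4 had the smallest p. Its mean was 4.81 ± 0.30 in HC4 and 4.63 ± 0.13 in the other 20 pools (SD, n = 4 and 20), a limma difference of 0.18 (95% interval -0.02 to 0.38, adjusted p = 0.998). It was above the mean of the other pools in 3 of 4 HC4 pools. The difference was 0.07 without HC4 replicate 2 and 0.31 without HC4 replicate 4. Within slides 1, 2 and 3 it was 0.23, 0.54 and -0.01.

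By unadjusted p, Klf2 in HC5, Klf4 in HC6 and Sox2 in HC5 followed. Klf2 averaged 2.45 ± 0.17 in HC5 and 2.65 ± 0.19 in the other 20 pools, a difference of -0.19 (interval -0.43 to 0.04, limma adjusted p = 0.874). Within slides 1, 2 and 3 the Klf2 difference was -0.10, 0.02 and -0.40. Klf4 averaged 4.55 ± 0.06 in HC6 and 4.69 ± 0.18 in the other 20 pools. The limma difference was -0.13 (interval -0.33 to 0.06, adjusted p = 0.999), and it was -0.23, -0.10 and -0.10 within the 3 slides. Sox2 averaged 1.57 ± 0.38 in HC5 and 1.78 ± 0.24 in the other 20 pools, a difference of -0.21 (interval -0.52 to 0.10, limma adjusted p = 0.877). The Sox2 difference was -0.07 once HC5 replicate 4 was left out, whose 75th percentile of signal was the lowest of the series. Within slides 1, 2 and 3 the Sox2 difference was 0.16, 0.05 and -0.54.

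The intervals bound what these pools could show. Of the 60 intervals, 54 stayed below a 1.5-fold and 56 below a 2-fold change, up or down. For Zfp42 the 6 intervals together ran from -0.27 to 0.27, for Klf5 from -0.30 to 0.26, for Esrrb from -0.32 to 0.30 and for Klf4 from -0.33 to 0.38. For Pou5f1 they ran from -0.46 to 0.44, for Sox2 from -0.52 to 0.47 and for Nanog from -0.57 to 0.55. Those of Prdm14 reached from -1.09 to 1.09, so they include a 2-fold change.

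**Figure D2:**
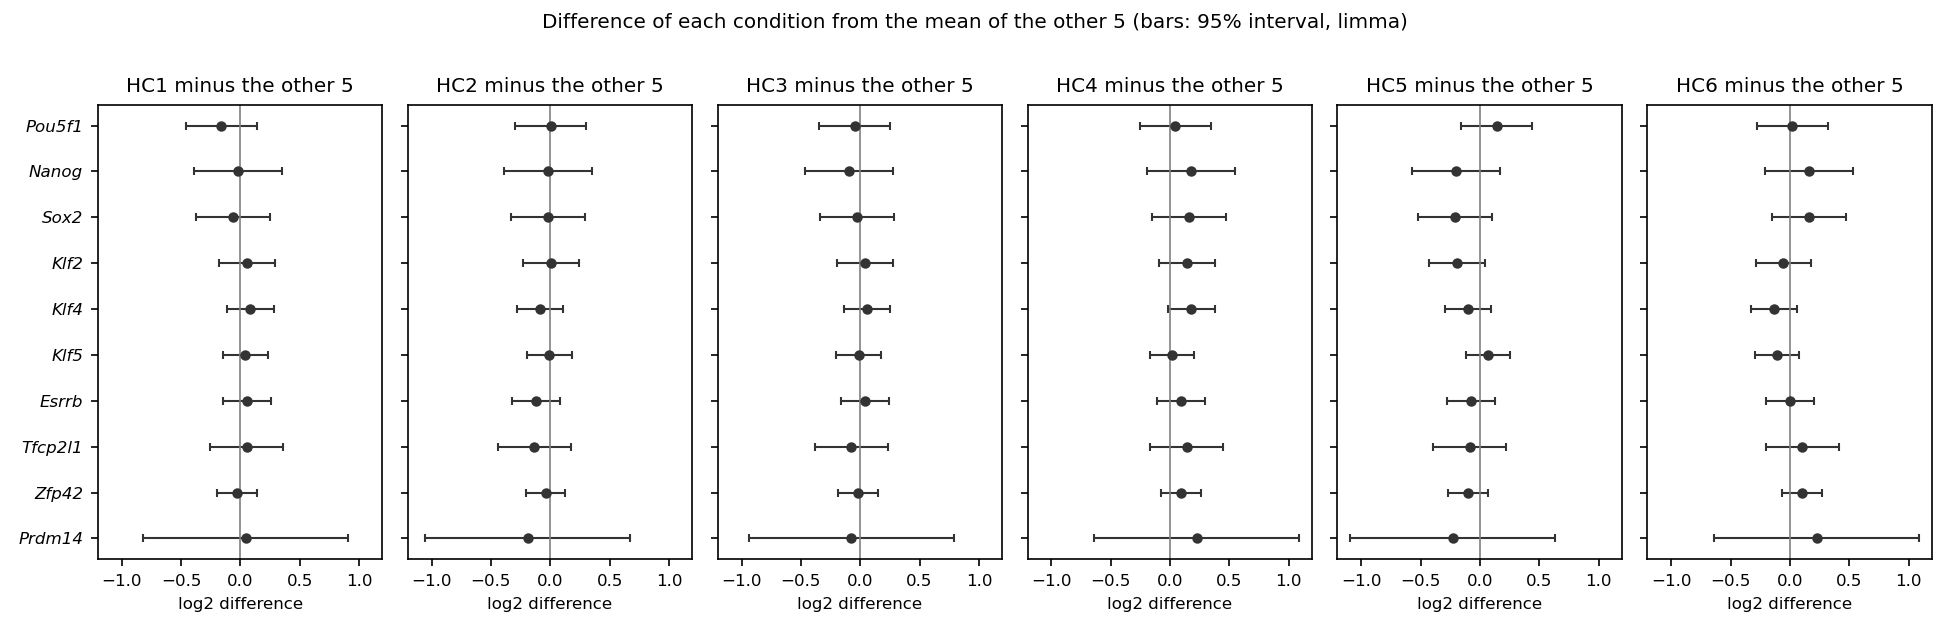
Difference of each code from the mean of the other 5 (horizontal axis, log2) for the 10 factors, 1 panel per code; points are limma estimates and bars 95% intervals. The intervals of all 60 combinations include 0.

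As a list, the 10 factors lay above the other codes in 10 of 10 cases in HC4, with a median difference of 0.14, where the median over all 18399 genes was 0.05 and 34.9% of them lay below. Under each of the other 4 scalings tried, Pou5f1 and Klf5 turned to the other side and 8 of 10 stayed above. In HC5, 8 of 10 lay below the other codes, with a median of -0.10 where that of all genes was -0.01 and 52.3% of them lay below, and Pou5f1 and Klf5 lay above them; this count was the same under each of the 5 scalings. Without HC5 replicate 4 Prdm14 turned to 0.14 in HC5. Within slides 1, 2 and 3 the HC5 difference was 0.89, 0.32 and -1.23 for Prdm14 and 0.06, 0.06 and -0.27 for Zfp42. It was 0.02, 0.12 and -0.21 for Esrrb and 0.04, 0.15 and -0.28 for Tfcp2l1. For Nanog it was -0.53, -0.26 and 0.05, and for Klf4 -0.07, -0.13 and -0.07. The direction in HC5 thus depended on the slide for several of the factors. The list of genes induced by handling stress (Fos, Jun, Atf3 and others, 8 genes) had a mean deviation of 0.25 to 0.90 in the 4 HC4 pools and -0.84 to 0.11 in the 4 HC5 pools. In the other codes it ran from -0.64 in an HC3 pool to 0.59 in an HC6 pool. Its mean was -0.31 on arrays in row 2, columns 2 to 4 of a slide and 0.18 on the others. Only 3 of the 8 genes were well above background on all 24 arrays. The part of this list in the factors' values was not tested.

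The third question took all 15 pairs of codes. Of 150 combinations of gene and pair, 0 were called by limma, where the percentage called over all genes and pairs was 0. At an unadjusted p under 0.05 there was 1, Klf4 between HC4 and HC6, against 2.84% of all combinations of gene and pair. Klf4 was 4.81 ± 0.30 in HC4 and 4.55 ± 0.06 in HC6, a limma difference of 0.26 (interval 0.01 to 0.51, adjusted p = 1). The HC4 pools had 4.92, 5.14, 4.77 and 4.43, and the HC6 pools 4.52, 4.64, 4.53 and 4.52, so that 3 HC4 pools lay above every HC6 pool and 1 lay below them. Of the 150 intervals, 116 lay within a 1.5-fold and 135 within a 2-fold change.

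The second probes were tested as features of their own. For Zfp42 the 2 probes overlap in sequence and varied together over the 24 pools, with r = 0.88 and rho = 0.81 (permutation p = 1e-05 each, the smallest that the permutations can give; adjusted 4e-05 over 4 genes) and r = 0.73 without the 2 farthest pools. For Klf5 r was 0.41 and rho 0.44, with permutation p-values of 0.0496 and 0.0324 that were 0.0991 and 0.0649 after adjustment. The second Klf5 probe lies on chromosome 14 from 99704137 to 99704196, inside the span of the used probe. Whether both read the same transcript was not looked up. For Tfcp2l1 and Nanog the probes did not track each other, with r = -0.13 in both and adjusted permutation p-values of 0.553. The second Esrrb probe was well above background on 2 of 24 arrays and was not tested.

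The 2 Nanog probes lay on opposite sides of the other codes in HC4 (0.18 at the used and -0.63 at the second probe) and in HC5. The used probe averaged 0.94 ± 0.43 in HC5 and 1.14 ± 0.29 in the other 20 pools, a limma difference of -0.20 (interval -0.57 to 0.17). The second probe had 1.29, 0.98, 1.90 and 2.69 in HC5, against -0.16 to 1.91 in the other pools, so the groups overlapped. Its mean was 1.71 ± 0.76 in HC5 and 0.94 ± 0.58 in the other 20 pools, a difference of 0.77 (interval 0.09 to 1.46, limma adjusted p = 0.819). It was higher in 4 of 4 HC5 pools, and the difference was 0.45 without HC5 replicate 4. Within slides 1, 2 and 3 it was 0.14, -0.02 and 1.65. The second probe, which holds the run shared with Zfp872, had an r of 0.71 with the Zfp872 probe over the 24 pools, and that probe was well above background on 1 array. The direction for Nanog in HC5 thus depended on the probe, and with the mean of both it was 0.28. The second probe is uncertain as a measure of Nanog. Its signal from this gene and from other transcripts that hold the shared run cannot be told apart here.

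**Figure D3:**
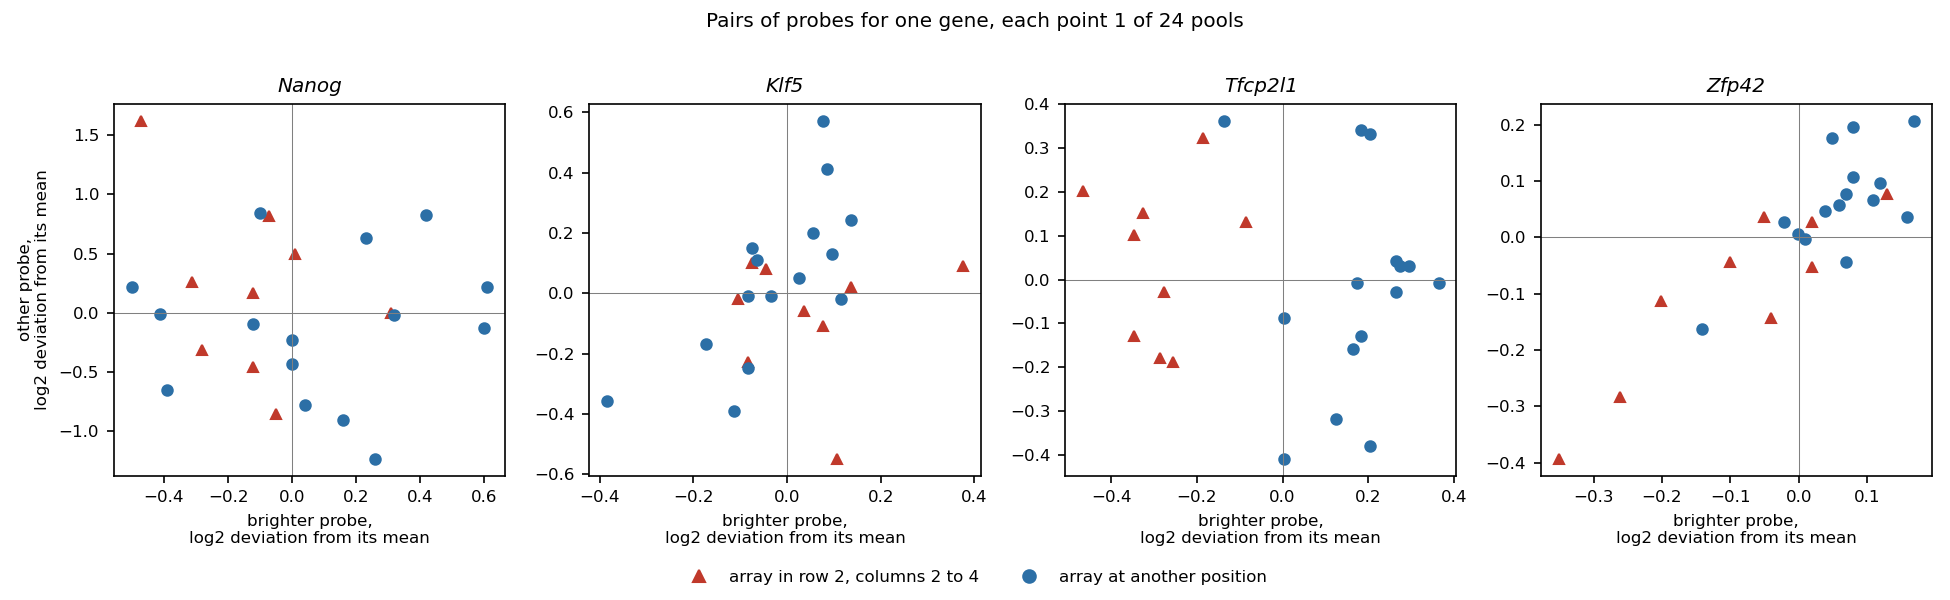
Deviation of the second probe from its own mean (vertical axis, log2) against that of the brighter, used probe (horizontal axis, log2) in the 24 pools for the 4 genes with 2 kept probes. Points of Zfp42 lie along a line, those of Nanog and Tfcp2l1 do not, and for Tfcp2l1 the used probe sets triangles (row 2, columns 2 to 4) below circles (other positions), except for 1 circle, HC5 replicate 3.

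The arrays of the series also differ by where they sit on the slide. Each of the 3 slides holds 8 arrays in 2 rows of 4. The first principal component over 13021 genes detected on every array held 30.4% of the variance. It was 0.15 to 0.44 on the 9 arrays in row 2, columns 2 to 4, and -0.26 to 0.06 on the 15 arrays at other positions, with no overlap. This division was found in these data, so what follows is described with no test. The 9 arrays hold 2 pools each of HC1, HC2 and HC3 and 1 each of HC4, HC5 and HC6. Over the detected genes the position difference had an r of 0.46 with the share of G and C bases in the probe (genes are not independent).

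Tfcp2l1, Prdm14 and Sox2 followed this division. Tfcp2l1 ran from 4.85 over a median of 5.03 to 5.23 on the 9 arrays in row 2, columns 2 to 4, and from 5.18 over 5.51 to 5.68 on the 15 others, a mean difference of -0.46. Prdm14 ran from -1.99 over -1.48 to -0.99 on the 9 arrays and from -1.21 over -0.19 to 0.21 on the 15 others, a difference of -1.26. With normexp and quantile normalization the Prdm14 difference was -0.59, and with the deposited table -0.74. Sox2 ran from 1.15 over 1.54 to 1.70 on the 9 arrays and from 1.35 over 1.89 to 2.26 on the 15 others, a difference of -0.38. For these 3 genes every pool in row 2, columns 2 to 4 lay below every other pool of its own code in 6 of 6 codes, and the difference was negative in 3 of 3 slides. HC5 replicate 3 was the lowest of the 15 others for each of them.

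Esrrb (-0.19), Zfp42 (-0.15), Nanog (-0.20), Klf4 (-0.11) and Klf2 (-0.05) were lower by less on the 9 arrays, while Pou5f1 (0.12) and Klf5 (0.07) were higher. The median over all detected genes was -0.09 on this scale and between -0.03 and -0.0037 under the other 4 scalings, where Klf2 turned to the other side and the other 9 genes kept their direction. Of the 10 factors, 0 had groups without overlap, where 2.13% of detected genes lay wholly lower and 1.55% wholly higher on the 9 arrays. The difference of Tfcp2l1 was more negative than that of all but 3.94% of detected genes. That of Sox2 was more negative than all but 7.17%, and that of Prdm14 than all but 0.276%. Gata6 was 0.16 lower and Cdx2 0.21 higher on the 9 arrays, and the mean deviation of the trophectoderm list (12 genes tested) ran from -0.16 to 0.12 on them and from -0.44 to 0.25 on the others. That of the 4-gene epiblast list ran from -0.44 to -0.03 on them and from -0.23 to 0.44 on the others. The part of these lists in the factors' values was not tested.

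**Figure D4:**
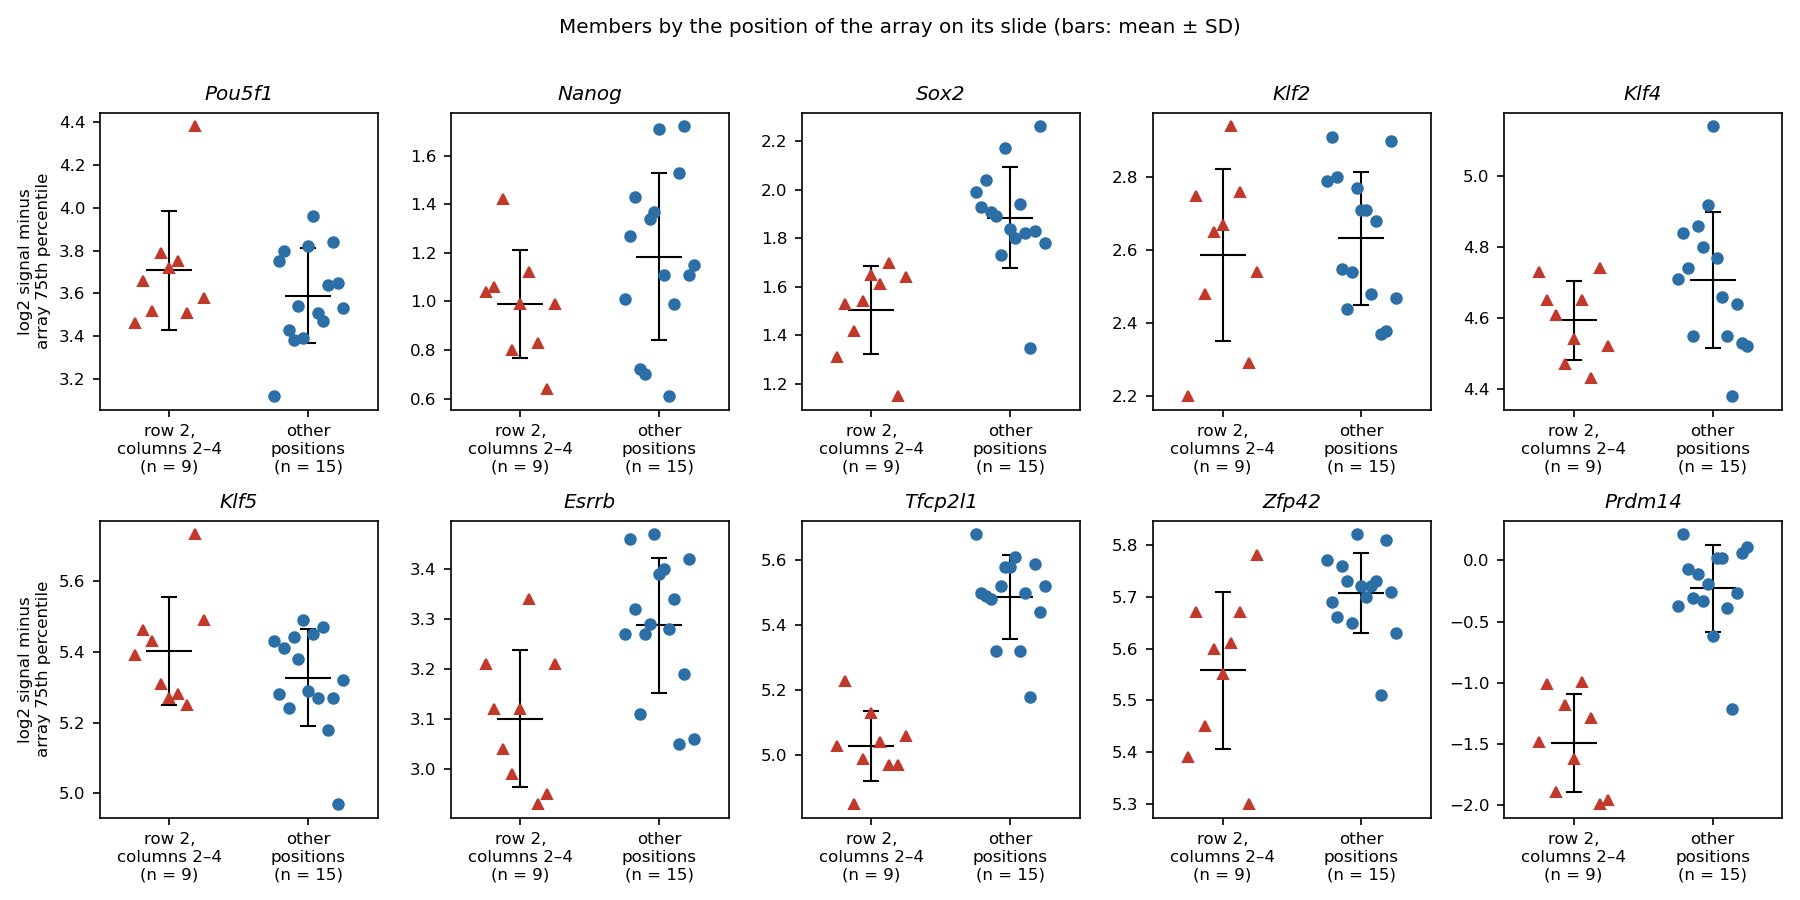
Level of each factor (vertical axis, log2 processed signal minus the array's 75th percentile; own scale per panel) on the 9 arrays in row 2, columns 2 to 4 (triangles) and the 15 arrays at other positions (circles); bars are mean ± SD. For Tfcp2l1 and Prdm14 1 pool of the 15, HC5 replicate 3, lies among the values of the 9.

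With this position as a block in the limma fit, 0 of 10 factors passed the F-test and 0 of 60 combinations were called, where 0 of all 18399 genes passed the F-test and 0 were called in each code; Sox2 in HC5 was then at -0.27 with an adjusted p of 0.343. That block was added after the data were seen.

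The factors were then set against one another across pools. Over the 36 pairs of the 9 factors detected on all arrays, 9 Pearson correlations passed after adjustment over the 36 by a permutation test, all of them positive; after quantile normalization of the processed signal 8 passed, of which 6 were positive. With the percentile taken over probes detected on all arrays 4 passed, and 2 passed with the deposited table, all of them positive. The median r was 0.18, where that of all pairs of detected genes was 0.07. Each of the 9 that passed had an r over 0.5, as did 9.3% of all pairs of detected genes. Without HC5 replicate 4, 6 of the 36 passed. Because several of these genes differ by position, each r is given within the position classes as well. Sox2 and Zfp42 had r = 0.82 and rho = 0.72 over 24 pools (two-sided permutation p = 1e-05 and 0.00012, adjusted 0.00036 and 0.00432) and r = 0.70 without the 2 farthest pools. Their r was 0.88 within the 9 arrays and 0.67 within the 15 others. Within slides 1, 2 and 3 it was 0.84, 0.51 and 0.95.

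Sox2 and Klf2 had r = 0.59 and rho = 0.51 over 24 pools (permutation p = 0.00241 and 0.0125, adjusted 0.0124 and 0.056), and r = 0.39 without the 2 farthest pools. Their r was 0.80 within the 9 arrays and 0.67 within the 15 others, and 0.80, 0.37 and 0.63 within slides 1, 2 and 3. Klf4 and Esrrb had r = 0.61 and rho = 0.62 (permutation p = 0.00117 and 0.00149, adjusted 0.00702 and 0.00984) and r = 0.59 without the 2 farthest pools. It was 0.33 within the 9 arrays and 0.64 within the 15 others, and 0.72, 0.47 and 0.69 within the 3 slides. Klf2 and Esrrb had r = 0.51 and rho = 0.56 (permutation p = 0.0114 and 0.00485, adjusted 0.0458 and 0.0249), with 0.21 within the 9 arrays and 0.79 within the 15 others. Sox2 and Esrrb had r = 0.69 and rho = 0.66 (adjusted permutation p = 0.0018 and 0.00816), with 0.21 and 0.63 within the 9 and the 15 arrays. Esrrb and Zfp42 had r = 0.53 and rho = 0.47 (adjusted permutation p = 0.0288 and 0.0824), with 0.24 and 0.42.

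Tfcp2l1 fell into separate position clusters, so its relations are given within them only. With Sox2 its r was 0.32 within the 9 arrays and 0.41 within the 15 others, with Esrrb 0.37 and 0.38, and with Zfp42 0.43 and 0.60. None of the 3 passed within either class by the permutation test. For Prdm14, likewise clustered, r with Tfcp2l1 was 0.45 within the 9 arrays and 0.32 within the 15 others, and r with Sox2 was 0.43 and 0.67. Taken as deviations from the means of the position classes, 2 of the 36 pairs passed, Sox2 with Zfp42 (r = 0.72) and Sox2 with Klf2 (r = 0.71), each with an adjusted permutation p of 0.00162. The median r was then 0.16, against 0.04 over all pairs of detected genes, of which 5.91% had an r over 0.5.

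None of the correlations of Pou5f1, Nanog or Klf5 with the other factors passed. Pou5f1 and Nanog, both expressed in the epiblast, had an r of 0.08 and a rho of 0.30 over 24 pools (permutation p = 0.705 and 0.151, adjusted 0.712 and 0.34). The r was 0.43 without the 2 farthest pools. It was -0.64 within the 9 arrays and 0.56 within the 15 others, so the pooled value covers opposite signs. Neither of these passed by the permutation test. Among the 9 arrays, HC5 replicate 4 had the highest Pou5f1 level (4.38) with a Nanog level of 0.64.

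**Figure D5:**
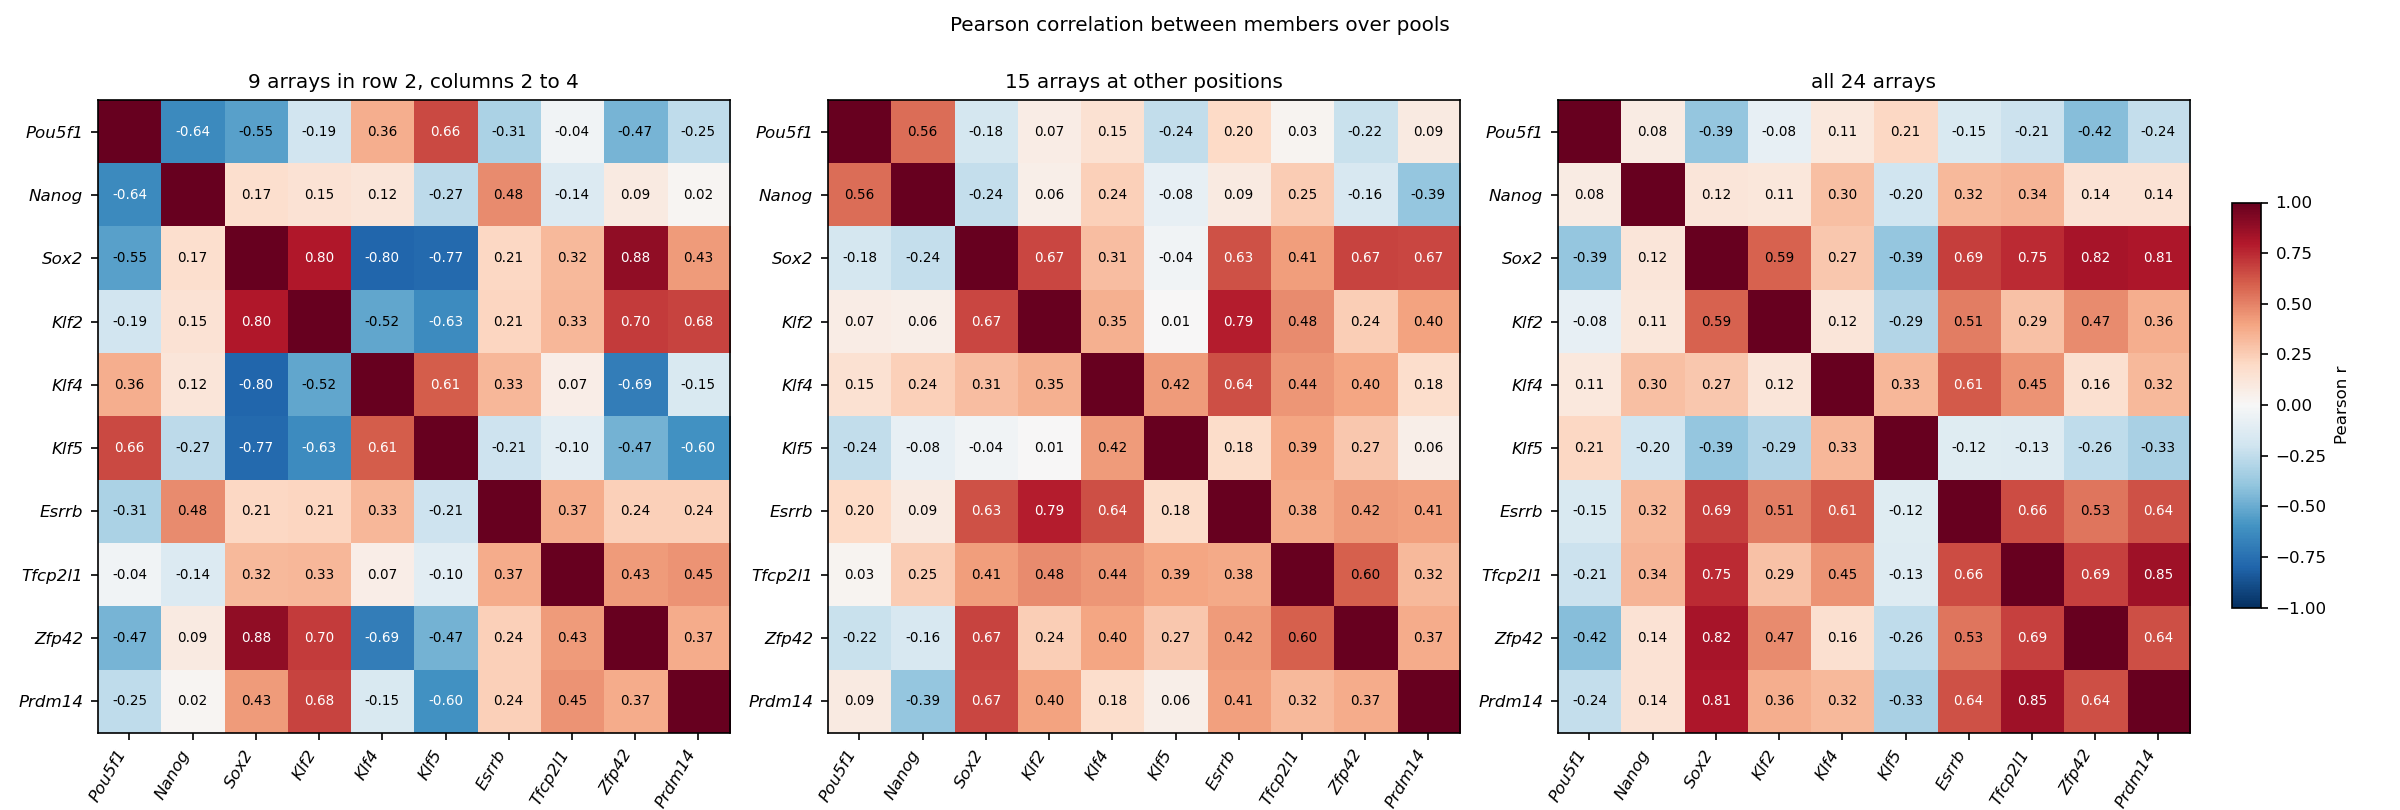
Pearson r (colour and printed value) between the levels of the 10 factors over the 9 arrays in row 2, columns 2 to 4, the 15 arrays at other positions and all 24 arrays. Sox2 with Zfp42 (0.88, 0.67 and 0.82) and Sox2 with Klf2 (0.80, 0.67 and 0.59) are high in all 3 panels, whereas Tfcp2l1 with Prdm14 is 0.45, 0.32 and 0.85.

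Set against Cdx2, the factor that specifies the trophectoderm, and Gata6, that of the primitive endoderm, 8 of 18 Pearson correlations passed by the permutation test after adjustment over the 18. Of these 6 were positive and 2 negative, and 2 of 18 passed without HC5 replicate 4. Under the other scalings 3 or 4 of 18 passed, 1 of them positive in each, which was Pou5f1 with Cdx2. The share of all genes that would pass with Cdx2 or Gata6 is not given here. Pou5f1 with Cdx2 was the strongest, with r = 0.76 and rho = 0.63 (permutation p = 0.00016 and 0.00131, adjusted 0.00288 and 0.0118). Its r was 0.55 without the 2 farthest pools and 0.58 without HC5 replicate 4, the highest pool of Pou5f1. It was 0.88 within the 9 arrays and 0.61 within the 15 others, and 0.38, 0.60 and 0.90 within slides 1, 2 and 3. As deviations from position means this was the single pair of the 18 that passed (r = 0.74, adjusted permutation p = 0.0009). Nanog with Gata6 had r = 0.54 and rho = 0.55 (permutation p = 0.00557 and 0.00589, adjusted 0.0324 and 0.0353), with r = 0.46 without the 2 farthest pools. It was 0.26 within the 9 arrays and 0.67 within the 15 others, 0.33, 0.66 and 0.65 within the slides, and -0.09 with the mean of the Nanog probes. Without HC5 replicate 4 it was 0.47 and did not pass. Esrrb, Sox2 and Zfp42 also passed with Gata6 over the 24 pools, each with r = 0.51. So did Tfcp2l1, which fell into position clusters, and Klf5, with r = -0.50. By rho Esrrb and Tfcp2l1 passed, while Sox2, Zfp42 and Klf5 did not. Sox2 with Cdx2 had r = -0.52 and rho = -0.42 (permutation p = 0.00829 and 0.0446, adjusted 0.0324 and 0.161), with -0.60 within the 9 arrays, -0.25 within the 15 others and -0.35 without the 2 farthest pools.

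The members were also set against the array's own signal. Of 20 correlations over all pools with the 75th percentile of signal or the share of spots above background, 0 passed after adjustment by the permutation test. Klf2 with the 75th percentile had the smallest p, with r = 0.53 and rho = 0.45 (permutation p = 0.00831 and 0.0266, adjusted 0.166 and 0.396). Within the 9 arrays the r with this percentile was 0.88 for Sox2, 0.83 for Klf2, 0.71 for Zfp42 and -0.80 for Klf5. Within the 15 others these were 0.38, 0.28, 0.27 and 0.02. For the remaining genes r within the 9 arrays ran from -0.57 to 0.64. With the share of spots it was -0.86 for Klf5 and from -0.43 to 0.66 for the others. The values within classes were not tested, nor was the part of array signal in the correlations among the factors.

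For each of the 9 factors detected on all arrays, the genes with the most similar pattern over the 24 arrays were taken from 9929 genes with a symbol that were so detected. For Pou5f1 they were Rarb (r = 0.81), Atg101 (0.81) and Rab5c (0.81), and for Nanog Gulo (0.82), Rnd1 (0.80) and Trib1 (0.78). For Klf2 they were Patz1 (0.77), Unc119b (0.74) and Zfp583 (0.73), for Klf4 Trappc5 (0.80), Wasf2 (0.74) and Zfp668 (0.74), and for Klf5 Pdxp (0.88), Gapdh (0.86) and Ap2a1 (0.86). For Sox2 they were Gtf2i (0.89), Gart (0.88) and Rrs1 (0.88), for Esrrb Zfp57 (0.82), Smim27 (0.81) and Stx12 (0.80), and for Zfp42 Tada2a (0.88), Uck2 (0.87) and Hnrnpa1 (0.86). For Tfcp2l1 they were Dennd4a (0.95), Ndufa8 (0.95) and Skint7 (0.95). As deviations from position means, none of these 3 remained among the 3 most like Tfcp2l1, whereas Trappc5 stayed first for Klf4, Pdxp for Klf5, Gulo for Nanog and Zfp57 for Esrrb.

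Genes that work with the factors were counted from 3 further lists. Of 25 network partners of the inner cell mass and of stem cells, such as Dppa3, Fgf4, Sall4 and Tdgf1, 25 were tested and 23 were well above background on all arrays. The limma F-test called 0 of them, where it called 0% of all genes, and 0 had an unadjusted p under 0.05, where that share was 2.09% of all genes. In the contrasts of a code with the others, 2 of 150 were higher and 1 lower at an unadjusted p under 0.05, against 2.89% of all genes and codes. The 4 of smallest p were Tbx3, Nr5a2, Rif1 and Tcl1. Nr5a2, a nuclear receptor that can drive Pou5f1, stood at 4.03 ± 0.08 in HC1 and 3.79 ± 0.17 in the other 20 pools (SD, n = 4 and 20; limma F-test adjusted p = 1). Tbx3, a T-box repressor, stood at 4.97 ± 0.04 in HC1 and 4.80 ± 0.12 in the other 20 pools (limma adjusted p = 1). Rif1, a telomere and replication factor, averaged 2.74 ± 0.18 in HC5 and 2.87 ± 0.13 in the other pools, and Tcl1, an AKT coactivator, -0.33 ± 0.26 in HC6 and -0.04 ± 0.19 in the others.

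Of 14 genes of the formative and primed epiblast, which follow the naive state after implantation, 9 were tested and 7 were well above background on all arrays. Of the rest, Fgf5, Lef1 and Sox3 reached that level on 1 array each, and Sall2 and Sfrp2 on 0. None of the 9 was called by the limma F-test, with 0 at an unadjusted p under 0.05, where that share was 2.09% of all genes. In the contrasts of a code with the others, 1 of 54 was higher and 0 lower at that level, against 2.89% of all genes and codes. Pou3f1 averaged -0.50 ± 0.76 in HC1 and 0.07 ± 0.49 in the other pools, Tcf15 1.69 ± 0.13 in HC1 and 1.36 ± 0.26 in the others, and Dnmt3a 0.95 ± 0.40 in HC5 and 1.20 ± 0.23 in the others. The T probe was above background on 4 of 24 arrays and is given no difference.

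Of 15 genes of the LIF, WNT and ERK pathways, 15 were tested and 12 were above background on all arrays. The limma F-test called 0, with 0 at an unadjusted p under 0.05, where that share was 2.09% of all genes. In the contrasts 2 of 90 were higher and 1 lower at that level, against 2.89% of all genes and codes. Socs3, the feedback inhibitor that STAT3 induces, averaged 0.90 ± 0.59 in HC5 and 1.33 ± 0.31 in the other 20 pools. Tcf7l1, the repressor through which WNT acts on naive genes, averaged 0.63 ± 0.08 in HC4 and 0.34 ± 0.24 in the other pools. Jak1 averaged 3.69 ± 0.13 in HC4 and 3.53 ± 0.09 in the others, and Fgfr1 4.91 ± 0.13 in HC6 and 4.74 ± 0.14 in the others.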

How the data were processed

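Total RNA of 24 blastocyst pools was labelled with Cy3 and hybridised to one-colour Agilent arrays, 1 pool per array. The deposited scanner files, for which the file headers name Agilent Feature Extraction 10.10.1.1, hold, per the file headers, the processed signal, an intensity per spot that was background-subtracted and spatially detrended but not normalized between arrays, with mm9 probe coordinates. The other deposited columns used are background and mean intensities and 0 or 1 spot flags. The deposited table of log2 values (27101 probes, medians 7.00 to 7.01, scale and centring otherwise unstated) served as an alternative; for 24 of 24 columns the array of highest correlation was the column's own. The submitters' processing notes name limma.

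Control and outlier spots were left out, the log2 signal minus the array's 75th percentile was taken, and spots of a probe were averaged. Probes flagged well above background on 4 or more arrays, with 2 or more values per condition, were kept (27078 probes), and a gene was given by its brightest kept probe (18399 genes). Gene names come from the files, updated through a RefSeq gene table. limma 3.58.1 in R 4.3.3 (lmFit and eBayes over all genes, Benjamini-Hochberg adjustment) tested the 6 conditions by F-test, each condition set against the average of the remaining 5, and the 15 pairs. Correlations used 100000 permutations (numpy 2.4.6, Python 3.11.15). The fit was tested on simulated data. All members, all their probes, the 3 genes of highest r with each member and up to 4 genes of smallest F-test p per list were named. The members and lists were chosen with earlier results of these data known. Alternatives changed the scaling, background filter, probe rule, blocks and samples.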

Additional observations from a re-analysis of the deposited data

Results flagged for a closer look

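Among 84 sets of 4 pools (14 kept probes in 6 codes), 4 held a pool whose gap to its nearest neighbour was larger than Dixon's critical value of 0.829 times the range of the 4. Chance gives about 1 in 20. Tfcp2l1 was 4.97 in HC4 replicate 4, where the other 3 pools lay between 5.58 and 5.61. Esrrb was 2.93 in the same pool, where the other 3 lay between 3.39 and 3.47. That array sits in row 2, columns 2 to 4 of its slide. Klf4 was 4.64 in HC6 replicate 2, where the other 3 pools lay between 4.52 and 4.53. The second Klf5 probe was 0.13 in HC6 replicate 3, where the other 3 lay between 0.48 and 0.51.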

How the results depend on the processing

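For 11 differences the alternatives gave 427 values. The 11 were, for each member and the second Nanog probe, the code of smallest p in these data. Differences picked in this way are likely to keep their direction on much the same arrays, so no conclusion is drawn from the count. Of the 427 values 424 kept their direction and their side of the threshold, 3 turned round and none was called, with a smallest limma adjusted p of 0.343. The 3 were Nanog in HC5 with the mean of the kept probes (0.28) and Prdm14 in HC5 with array weights (0.0571) and without HC5 replicate 4 (0.14), with a range of -0.53 to 0.14 over the pools of HC5 left out; the cause was not tested. Outside these 11, Pou5f1 and Klf5 in HC4 turned round under each of 4 other scalings. Over all genes, the limma count was 0 in every comparison and became 1 in HC5 with no background filter, 1 in HC4 with array weights and 3 in HC1 on the 15 arrays outside row 2, columns 2 to 4. Leaving out 1 replicate gave 0 to 1 for the F-test and HC1 (1 without HC1 replicate 3), HC2 (1 without HC2 replicate 1) and HC5 (1 without HC5 replicate 1), 0 to 2 for HC4 (2 without HC4 replicate 4) and 0 to 4 for the pairs. The count for the pairs was 4 without HC1 replicate 3 and 3 without HC4 replicate 4. Of 36 correlations among members, where 9 passed, 4 passed with the percentile over probes detected on all arrays, 2 with the deposited table, 5 with the mean of the kept probes, 2 as deviations from position means, 1 on the 15 arrays, 0 on the 9 arrays and 1 after removal of the first principal component. Of 18 with Cdx2 and Gata6, where 8 passed, 4 passed with normexp and quantile, 4 with quantile, 4 with the percentile over detected probes, 3 with the deposited table, 2 without HC6, 1 by position means, 0 on the 15 and 0 on the 9 arrays, 2 without HC5 replicate 4 and 1 after removal of the component. After that removal Sox2 with Tfcp2l1 was -0.0894, and with the mean of the kept probes Nanog with Gata6 was -0.0854. The labels do not say that replicate numbers pair the samples. Over 60 pairs of same-numbered pools r was -0.48 to 0.50, and it was over 0.1 in 29 of them. Of the arrays, 14 of 24 correlated best with a pool of their own number. Every replicate 1 pool sat on slide 1 and every replicate 4 pool on slide 3. A pairing by number and a shared slide can thus not be told apart here. With the replicate block the F-test called 0 genes and no call changed. Low signal limits Prdm14, which was near background on some arrays.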
